A study of Oryza sativa with 18 samples.

Results

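The 10 chlorophyll synthesis genes described here were followed through young panicles of rice as pollen mother cells formed, passed through meiosis and gave rise to microspores. They were chosen as a named list of identifiers of enzymes of the pathway, not by a cut on their expression, though with earlier results of these data known. They make up 10 of the 47919 coding genes in the deposited table. The genes are HEMA1 (LOC_Os10g35840), CHLH (LOC_Os03g20700), CHLI (LOC_Os03g36540), CHLD (LOC_Os03g59640), CRD1 (LOC_Os01g17170), DVR (LOC_Os03g22780), PORA (LOC_Os04g58200), PORB (LOC_Os10g35370), CAO1 (LOC_Os10g41780) and YGL1, also called CHLG (LOC_Os05g28200). The identifiers belong to the MSU rice annotation and carry the chromosome number in the digits after "Os". RefSeq's table of rice genes holds the symbol on the same chromosome for 8 of the 10, all but HEMA1 and CRD1. Its assembly differs from that of the files, so no coordinates are given.

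The RNA came from Wuxiang S (WXS), a photo-thermosensitive genic male sterile line of indica rice, whose pollen fails or develops according to day length and temperature. WXS (S) plants stayed in the field under days longer than 12 h with a mean daily temperature above 24 °C and were male sterile. WXS (F) plants were moved into an incubator when the young panicle was about 1 cm long, were kept there with 12 h of light at about 21 °C for 3 to 4 weeks, and were male fertile. Strand-specific libraries of RNA without ribosomal RNA were made at pollen mother cell formation (P2), meiosis (P3) and microspore formation (P4), and 3 biological replicates per group gave 18 libraries in all. The sterile groups are called SP2, SP3 and SP4 by stage, and the fertile groups FP2, FP3 and FP4. All groups are of the same line, and no line that is fertile in both settings was analysed here. The day length, the temperature and the place of growth changed together between S and F and cannot be told apart. The question for these genes was whether their transcripts differed between fertile and sterile panicles at each stage, and between stages.

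Chlorophyll is made in plastids by enzymes encoded in the nucleus. Glutamyl-tRNA reductase opens the route by directing glutamate into aminolevulinic acid, which is built up to protoporphyrin. Magnesium chelatase then commits protoporphyrin to chlorophyll rather than heme, a cyclase closes the extra ring, a reductase removes a vinyl double bond, and protochlorophyllide oxidoreductase (POR) makes chlorophyllide in a reaction that flowering plants can carry out only in light. Chlorophyll synthase adds the long tail, and chlorophyllide a oxygenase makes the b form. In a panicle the green parts are mainly the lemma, palea and rachis, and anther walls of many plants hold plastids that green for a time.

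The coding-gene counts summed to between 30577833 and 52222861 per library, and a single gene of the 10 had between 83 and 8807 counts in a library. All 10 passed the filter of at least 10 counts in at least 3 libraries in every comparison. Spearman coefficients between replicates of a group were 0.966 to 0.983 across 27233 genes. Libraries SP2-1 (0.973 with each of its replicates, which had 0.979 with each other) and SP3-2 (0.969 and 0.966, against 0.978) stood slightly apart, and calls of these genes that changed with both left out are given with the result. In these panicles, 8 genes outside the list each took over 1% of the counts in some library, together between 0.597% and 10.1%.

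Compared with WXS (S), the chlorophyll genes were mostly lower in WXS (F), most widely at P2 and least at P4. At P2, 7 of 10 fell and 0 rose at an adjusted P below 0.05 by the quasi-likelihood test of edgeR, where 40.8% of all 23759 genes tested were called and 19.5% were called lower. At P3, 5 fell and 3 rose (CHLI, PORB and YGL1), against 42.8% of 24452 genes called, 19.1% lower and 23.7% higher. At P4, 3 fell (CHLH, CHLD and CAO1) and 1 rose (PORB), against 52.6% of 24724 genes called, 24.4% lower and 28.2% higher, so that the 4 of 10 called at P4 made up a smaller share than among all genes. The median log2 fold change of F against S over the 10 went from -0.57 (P2) through -0.41 (P3) to -0.16 (P4), beside medians of 0.04, 0.04 and 0.00 over all genes tested. Among changes of at least 2-fold, 3 of the 10 were called at P2 (CRD1, DVR and CAO1, all lower), 1 at P3 (CAO1, lower) and 0 at P4. Of all genes, that rule called 18.1% at P2 (10.3% higher and 7.76% lower), 21.6% at P3 (14.9% and 6.65%) and 22.5% at P4 (15.7% and 6.78%). The P3 count of 8 fell to 3 without FP3-1 or FP3-3, to 4 without FP3-2 and to 5 without SP3-3. Of all genes, 10474 were called at P3 with no library left out and 6790 to 12414 over the 6 fits with a single library left out. The count over all genes also fell most without FP3-1, FP3-2 or FP3-3, so the losses there were not particular to the chlorophyll genes. Since whole panicles were sequenced, fewer cells that express a gene and less RNA per cell cannot be told apart.

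**Figure D1:**
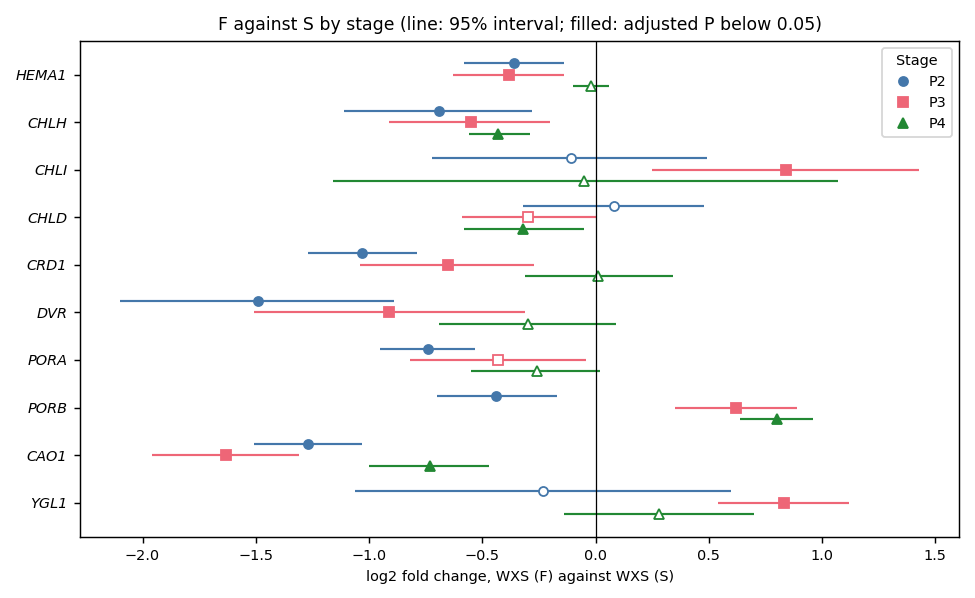
Log2 fold changes of WXS (F) against WXS (S) for the 10 chlorophyll synthesis genes at P2, P3 and P4 (points) with 95% intervals from edgeR (lines), where filled points passed an adjusted P of 0.05. CAO1 is below 0 at all 3 stages, from -1.63 to -0.73, and PORB moves from -0.44 at P2 to 0.62 at P3 and 0.80 at P4.

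HEMA1 encodes glutamyl-tRNA reductase, the enzyme at the entry of the route. Its normalised counts at P2 were 94.9, 115 and 110 CPM (counts per 1000000 counts of the library, with totals scaled by TMM) in SP2 and 75.7, 86.4 and 81.6 in FP2. At P3 they were 143, 117 and 147 in SP3 and 98.9, 96.0 and 104 in FP3. The F libraries lay below every S library at both stages, by -0.36 on the log2 scale at P2 (SE 0.09, edgeR adjusted P = 0.0225) and -0.38 at P3 (SE 0.10, adjusted P = 0.0225). At P4 the groups overlapped, with 129, 130 and 127 CPM in SP4 and 123, 125 and 127 in FP4, and the difference of -0.02 had a 95% interval of -0.10 to 0.06. The P2 change was not called when TMM scaling was left out (-0.22, adjusted P = 0.0929). Without single libraries the call was lost in 4 of 6 cases at P2 (SP2-2, SP2-3, FP2-1 and FP2-3) and 5 of 6 at P3 (every one but SP3-2), with log2 fold changes of -0.48 to -0.30 and -0.55 to -0.35.

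The magnesium chelatase is built from 3 kinds of subunit, and their transcripts did not move alike. CHLH, the large subunit that binds the porphyrin, had 85.5, 60.7 and 95 CPM in SP2 against 45.0, 46.9 and 53.6 in FP2. In SP3 it had 66.8, 93.0 and 66.9 CPM against 51.2, 48.6 and 48.5 in FP3, and in SP4 155, 149 and 155 against 103, 113 and 118 in FP4. Every F library was below every S library of its stage. CHLH fell by 0.69 on the log2 scale at P2 (SE 0.17, edgeR adjusted P = 0.0196), by 0.55 at P3 (SE 0.15, adjusted P = 0.0227) and by 0.43 at P4 (SE 0.06, adjusted P = 0.00093). The P4 call held in all 13 alternative fits. That at P2 was lost without FP2-1 or FP2-2 and that at P3 without any of the FP3 libraries.

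CHLI and CHLD form the part of the chelatase that uses ATP. CHLI was the scarcer, with 5.17, 9.07 and 5.35 CPM in SP3 and 10.6, 11.4 and 11.7 in FP3, groups that did not overlap. Its rise of 0.84 at P3 (SE 0.25, edgeR adjusted P = 0.0319) lost its call without SP3-1, SP3-3 or any single FP3 library (0.68 to 1.08 over the 6 left out). At P2 the CHLI difference was -0.11 (95% interval -0.72 to 0.49). At P4 the libraries of FP4 themselves spread from 5.27 to 19.9 CPM, a coefficient of variation of 55.2%, and the interval of -1.16 to 1.07 was too wide to show a change in either direction. CHLD differed by 0.08 at P2 (-0.32 to 0.48) and by -0.30 at P3 (-0.59 to 0.00, adjusted P = 0.0964). The P3 difference of CHLD did pass with DESeq2 (-0.34, adjusted P = 0.0465), without SP3-2 (-0.46, edgeR adjusted P = 0.0119) and with both SP2-1 and SP3-2 left out (-0.49, edgeR adjusted P = 0.0128). CHLD fell by 0.32 at P4 (SE 0.11, adjusted P = 0.0485), where SP4 had 38.7, 42.1 and 34.3 CPM and FP4 33.2, 30.5 and 27.0. That P4 call was lost without SP4-1, SP4-2, FP4-2 or FP4-3 (-0.39 to -0.22 over the 6 left out). By the FPKM that the authors deposited (fragments scaled for length and library size), the ratio of CHLI to CHLH was 0.191 to 0.285 in SP3. It was 0.488 to 0.578 in FP3, a description with no test. At P2 this ratio overlapped (0.215 to 0.406 in SP2, 0.29 to 0.635 in FP2). It also overlapped at P4 (0.122 to 0.267 in SP4, 0.0962 to 0.439 in FP4). The ratio of CHLD to CHLH overlapped between S and F at every stage, with 0.361 to 0.557 in SP3 and 0.533 to 0.554 in FP3.

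CRD1, a subunit of the cyclase that closes the extra ring, showed a difference that was gone by microspore formation. SP2 had 41.3, 42.6 and 42.2 CPM and FP2 20.3, 17.9 and 22.1. SP3 had 30.4, 36.6 and 30.3 CPM and FP3 17.8, 23.9 and 17.8. F lay below S throughout at these stages, by -1.03 at P2 (SE 0.10, edgeR adjusted P = 0.00052) and -0.65 at P3 (SE 0.16, adjusted P = 0.0174). The P3 call was lost without FP3-1 or FP3-3, and the P2 call held in every one of 14 alternative fits. At P4 the groups overlapped, with 61.0, 48.9 and 57.2 CPM in SP4 and 50.5, 65.7 and 49.3 in FP4, a difference of 0.01 with an interval of -0.31 to 0.34.

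DVR, the divinyl reductase, was among the scarcest of the genes. It had 4.45, 5.61 and 8.19 CPM in SP2 and 2.20, 2.05 and 2.08 in FP2, so the sterile libraries were both higher and more scattered. It fell by 1.49 in F at P2 (SE 0.25, edgeR adjusted P = 0.00469), the largest fold of the 10 genes at that stage at 2.81-fold. At P3 it fell by 0.91 (SE 0.25, adjusted P = 0.0258), with 6.77, 5.03 and 9.0 CPM in SP3 and 3.66, 2.98 and 3.95 in FP3, a call that was kept only when SP3-2 was the library left out. At P4, 3.55, 4.46 and 3.93 CPM in SP4 and 3.17, 3.51 and 2.83 in FP4 gave -0.30 (interval -0.69 to 0.09, adjusted P = 0.168).

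The POR genes encode enzymes for the same light-driven step, and in rice PORA is known from greening seedlings while PORB acts also in mature green leaves. PORA had 32.9, 35 and 33.2 CPM in SP2 and 20.3, 20.4 and 18.3 in FP2, a fall of 0.74 (SE 0.09, edgeR adjusted P = 0.00117). It stayed below S in every F library at P3, with 40.3, 51.5 and 63.4 CPM in SP3 against 36.0, 37.9 and 36.6 for FP3, and at P4, with 198, 216 and 211 CPM in SP4 and 137, 190 and 184 in FP4. Those differences did not pass the test, at -0.43 for P3 (interval -0.82 to -0.04, adjusted P = 0.0716) and -0.26 for P4 (-0.55 to 0.02, adjusted P = 0.110). At P3 PORA did pass with DESeq2 (-0.47), in the fit of all libraries (-0.43), without the genes over 1% of a library (-0.50), without SP3-1 (-0.59) and with both SP2-1 and SP3-2 left out (-0.54).

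PORB was the only gene of the 10 with a called change in each direction. It fell by 0.44 at P2 (SE 0.11, edgeR adjusted P = 0.0219), from 14.0, 15.4 and 13.8 CPM in SP2 to 11.2, 10.6 and 9.42 in FP2. It then rose by 0.62 at P3 (SE 0.11, adjusted P = 0.00568), from 11.4, 13.7 and 12.8 CPM in SP3 to 18.3, 18.1 and 19.5 in FP3, and by 0.80 at P4 (SE 0.07, adjusted P = 0.00012), from 24.4, 27.6 and 25.4 CPM in SP4 to 42.9, 45.9 and 43.6 in FP4. The groups overlapped at none of the 3 stages. Both rises held in every alternative fit. The fall at P2 was lost without TMM (-0.29, adjusted P = 0.0896) and without SP2-2, FP2-2 or FP2-3. The ratio of PORB to PORA FPKM was higher in F at each stage, at 0.414 to 0.479 in FP2 against 0.353 to 0.382 in SP2, 0.394 to 0.452 in FP3 against 0.163 to 0.230 in SP3, and 0.189 to 0.267 in FP4 against 0.101 to 0.108 in SP4. These ratios are a description, with no test of their own.

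**Figure D2:**
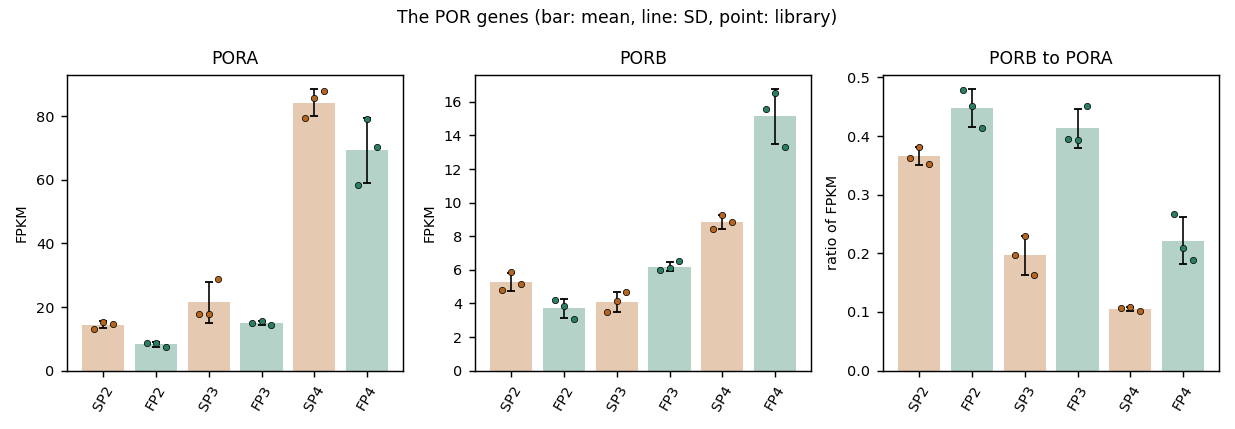
FPKM of PORA and of PORB, and the ratio of PORB to PORA, in the 6 groups (bars, mean of 3 libraries; lines, SD; points, libraries; each panel has its own axis from 0). PORA reaches a mean of 84.3 FPKM in SP4 and 69.3 in FP4, PORB 8.85 and 15.1, and the ratio in F is above that in S at each stage.

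CAO1, the oxygenase that makes the b form of chlorophyll, was the gene most steadily lower in the fertile panicles. It had 56.8, 61.3 and 65.3 CPM in SP2 and 24.0, 27.2 and 22.9 in FP2. In SP3 it had 61.2, 61.3 and 46.5 CPM against 17.9, 16.8 and 17.7 in FP3, and in SP4 66.6, 52.3 and 50.5 against 33.7, 33.7 and 32.5 in FP4. No F library reached the lowest S library of its stage. CAO1 fell by 1.27 at P2 (SE 0.10, edgeR adjusted P = 0.00025), by 1.63 at P3 (SE 0.14, adjusted P = 0.00027) and by 0.73 at P4 (SE 0.11, adjusted P = 0.00184). Each call held in all alternative fits. Rice has a close copy of CAO1 beside it in the genome, and how reads that fit both copies were counted is not given in the sources used here, so the CAO1 counts are uncertain to that extent.

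YGL1, the chlorophyll synthase that joins the tail to chlorophyllide, was higher in F at P3 alone among calls. It had 14.8, 13.2 and 14.8 CPM in SP3 and 26.3, 21.3 and 25.0 in FP3. This rise of 0.83 (SE 0.12, edgeR adjusted P = 0.00236) held in all alternative fits. At P2 the value of SP2-1 (46.2 CPM) was over that of SP2-2 and SP2-3 (21.6 and 21.4), while FP2 had 31.6, 21.0 and 22.0. The P2 difference of -0.23 had an interval of -1.06 to 0.60, and without SP2-1 it was 0.20. At P4, 22.2, 36.0 and 33.0 CPM in SP4 and 36.7, 36.9 and 34.8 in FP4 overlapped, with a difference of 0.28 (-0.14 to 0.70, adjusted P = 0.228).

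**Figure D3:**
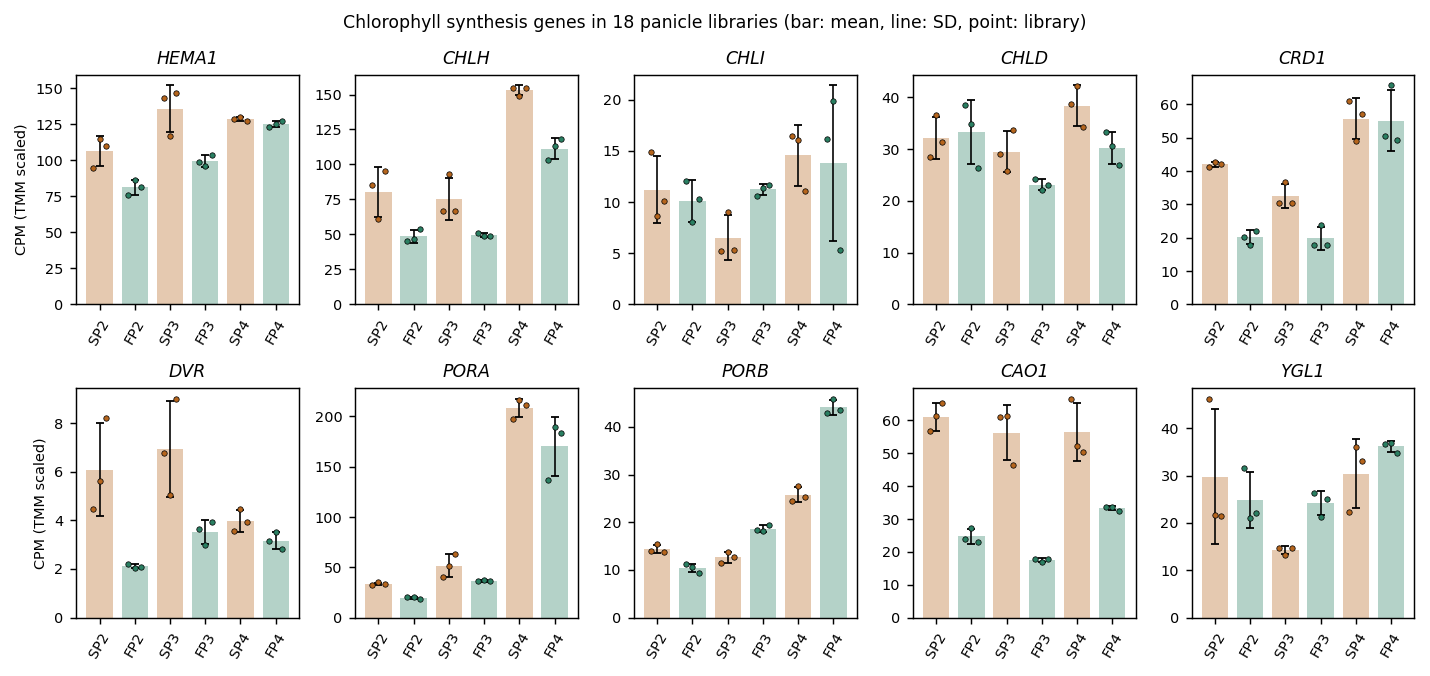
Normalised counts (CPM) of each of the 10 chlorophyll synthesis genes in the 6 groups (bars, mean of 3 libraries; lines, SD; points, libraries; each panel has its own axis from 0). The F points lie apart from the S points for 7 genes at P2, all 10 at P3 and 6 at P4, and CHLI in FP4 and YGL1 in SP2 each have 1 library far from its replicates.

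In CPM, the 3 libraries of F lay wholly below the 3 of S for 7 genes at P2, and wholly above for 0, where 27.5% of all genes lay below, 28.0% above and 55.5% did not overlap in either direction. At P3 no gene of the 10 overlapped, with 7 below and 3 above, against 57.5% not overlapping, 28.3% below and 29.1% above. At P4, 5 were below and 1 (PORB) above, against 63.0% not overlapping, 31.3% below and 31.7% above.

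The difference between F and S itself changed with the stage for 5 of the 10 genes, by the stage-by-condition interaction of the 18-library fit, where 38.2% of 27233 genes were called. The count was 3 without FP2-1, FP2-3, FP4-2, SP4-1 or SP4-3. Of all genes, 10401 were called with no library left out and 9412 to 12226 over the 18 fits with a single one left out. PORB had the smallest P of the 5 (edgeR adjusted P = 3.6e-06), as its log2 fold change was 1.07 higher at P3 than at P2 (SE 0.13, adjusted P = 1.5e-05) and 1.24 higher at P4 than at P2 (SE 0.13, adjusted P = 3e-06). CRD1 (interaction adjusted P = 0.00206) moved by 1.05 from P2 to P4 (SE 0.20, adjusted P = 0.00093). CAO1 (interaction adjusted P = 0.00223) moved by 0.89 from P3 to P4 (SE 0.17, adjusted P = 0.00188), with a smaller deficit in F at the later stage. These 3 interactions were called whichever of the 18 libraries was left out. DVR (interaction adjusted P = 0.0284) moved by 1.2 from P2 to P4 (SE 0.33, adjusted P = 0.0131), and its interaction was called in 11 of 18 such fits, being lost without SP2-3, SP4-1, SP4-3, FP4-2 or any single FP2 library. The DVR interaction was also lost without TMM (adjusted P = 0.0992) and with no filter (adjusted P = 0.0578). HEMA1 (interaction adjusted P = 0.0406) was called in 4 of 18, those without SP2-1, SP3-2, FP2-2 or FP3-3, with adjusted P values from 0.00432 to 0.0868 over the 18. The HEMA1 interaction was not called without TMM (adjusted P = 0.178) or with no filter (adjusted P = 0.0567). With a block for replicate numbers it was not called either (adjusted P = 0.0541).

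Over the single differences between stages, P4 against P2 was called for 5 of the 10 genes (28.7% of all genes), P4 against P3 for CRD1 and CAO1 (18.5% of all) and P3 against P2 for PORB and YGL1 (27.2% of all). Without TMM, P3 against P2 was called for CAO1 too (-0.53, edgeR adjusted P = 0.00974), while YGL1 was not called. Without SP3-3, P3 against P2 was called for CAO1 and PORA. Of the P4 against P2 calls, those of CRD1, DVR and PORB held whichever library was left out, that of CAO1 in 13 of 18 fits (lost without SP2-3, SP4-2, SP4-3, FP2-1 or FP2-3, and at adjusted P = 0.114 without TMM) and that of HEMA1 in 6 of 18 (kept without SP2-1, any single SP3 library, FP2-2 or FP3-3). The HEMA1 call was also lost without TMM (0.10, edgeR adjusted P = 0.639), with no filter, with a block for replicate numbers and without genes over 1% of a library. The P4 against P3 call of CAO1 held in all 18 and that of CRD1 in 12 of 18, lost without SP3-2, SP4-2, SP4-3, FP3-1, FP3-3 or FP4-2 (adjusted P up to 0.0835). With SP2-1 and SP3-2 both left out, P4 against P3 was also called for HEMA1 (0.57, adjusted P = 5.3e-05) and DVR (0.90, adjusted P = 0.0223). The YGL1 value of 1.07 (SE 0.37, edgeR adjusted P = 0.0430) was called in 5 of the 18 fits with a library left out, which gave 0.60 (without SP2-1) to 1.26, and it was 0.44 and not called (adjusted P = 0.257) with SP2-1 and SP3-2 both left out. This YGL1 call was also lost without TMM (0.88, adjusted P = 0.111) and with no filter (1.02, adjusted P = 0.0627). With a block for replicate numbers YGL1 was not called either (1.04, adjusted P = 0.0518). Its interaction over all stages was not called (adjusted P = 0.0815) except without SP2-2 or SP2-3. For CHLH, CHLI, CHLD and PORA the interaction was not called either, with adjusted P values of 0.552, 0.256, 0.217 and 0.128, though that of CHLD was called without TMM (adjusted P = 0.0470) and that of PORA without SP3-3 or FP4-1.

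From stage to stage, the main rise came between meiosis and microspore formation in both conditions. In S, 7 genes rose and 1 fell from SP3 to SP4, against 43.5% of all genes called, 23.2% higher and 20.3% lower. In F, 7 rose and 0 fell from FP3 to FP4, against 36.5% called, 17.3% higher and 19.3% lower. The median change over the 10 was 0.96 in S and 0.77 in F, beside 0.02 and -0.04 over all genes.

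PORA rose most of the 10 in both, by 2.08 in S (SE 0.14, edgeR adjusted P = 2e-08) or 4.21-fold, and by 2.23 in F (SE 0.14, adjusted P = 9.5e-09) or 4.68-fold. PORB rose by 1.09 in S and 1.26 in F, CHLH by 1.08 and 1.19, and CRD1 by 0.84 and 1.49, with edgeR adjusted P values between 4e-08 and 0.00018. CHLD also rose in both, by 0.44 and 0.41 (adjusted P = 0.0205 and 0.0362). In S that call was lost without SP3-1, SP3-2, SP4-2 or FP3-2 and with no filter (0.38, edgeR adjusted P = 0.0681). It was also lost in S with SP2-1 and SP3-2 both left out (0.27, adjusted P = 0.156). In F the CHLD call was lost without any single FP3 library, FP4-1 or FP4-2. It was also lost in F with no filter (0.39, edgeR adjusted P = 0.0711) and without TMM (0.33, adjusted P = 0.107). CHLI (1.22) and YGL1 (1.16) were called in S alone, at adjusted P = 0.0170 (lost without SP3-1, SP3-3 or SP4-1) and 0.00226, and HEMA1 (0.34) and CAO1 (0.95) in F alone, at adjusted P = 0.00498 and 1.6e-05. In F, YGL1 differed by 0.60 from FP3 to FP4 (adjusted P = 0.0866), and it was called with DESeq2 (0.65, adjusted P = 0.0316), without SP2-1 (0.60, edgeR adjusted P = 0.0130) and with SP2-1 and SP3-2 both left out (0.63, edgeR adjusted P = 0.00977). With those libraries left out HEMA1 was called lower from SP3 to SP4 (-0.19, adjusted P = 0.00923). Of these 4, the difference between the conditions passed its own test for CAO1 and not for CHLI, YGL1 or HEMA1 (for HEMA1 adjusted P = 0.0523). DVR fell in S by 0.74 (SE 0.23, adjusted P = 0.0184), a call lost without SP3-3 or SP4-1.

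Between P2 and P3 the genes moved less and in both directions. From SP2 to SP3, 3 were called, with HEMA1 (0.32) and PORA (0.60) higher and YGL1 (-1.09) lower (edgeR adjusted P = 0.0110, 0.00407 and 0.00655), against 24.4% of all genes. The YGL1 fall was -0.62 without SP2-1, and with both SP2-1 and SP3-2 left out it was -0.51 and not called. From FP2 to FP3, 6 were called against 39.5% of all genes, 22.9% higher and 16.6% lower. HEMA1 (0.32), DVR (0.76), PORA (0.92) and PORB (0.86) rose there, and CHLD (-0.51) and CAO1 (-0.48) fell, with edgeR adjusted P values from 2.3e-06 to 0.0178. The HEMA1 call was lost without TMM, FP2-1 or FP3-2, and the DVR call without FP2-1 or FP3-3. The 4 comparisons share groups with each other and with those of F against S.

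By the deposited FPKM, HEMA1 transcripts were the most abundant of the 10 at P2 and P3 in both conditions and PORA transcripts at P4. HEMA1 had 25.2 ± 4.83 FPKM (SD, n = 3) in SP2 against 17.7 ± 0.791 for FP2. At meiosis its level was 33.0 ± 9.31 in SP3, while FP3 had 21.8 ± 0.170. In SP3 its libraries (22.5 to 40.3 FPKM) overlapped those of PORA (17.7 to 28.9), so that their order there was not resolved. PORA had 84.3 ± 4.35 in SP4 and 69.3 ± 10.3 in FP4, where HEMA1 had 30.4 ± 2.09 and 30.2 ± 3.73. PORA thus grew from 14.4% of the summed FPKM of the 10 genes in SP2 to 45.0% in SP4, and from 13.3% in FP2 to 40.5% in FP4.

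DVR was last in every group but SP3, with means from 0.849 FPKM in FP2 to 2.53 in SP2. In SP3 CHLI was last (1.76 ± 0.370) with DVR next (2.84 ± 1.13). In SP2 the spread of DVR (2.53 ± 0.889) met that of CHLI (2.71 ± 0.795). The order among neighbours was often not resolved, as for CAO1 (14.1 ± 1.85), PORA (14.4 ± 1.11) and CRD1 (12.8 ± 0.876) in SP2. The sum over the 10 genes was 99.8 ± 5.05 FPKM in SP2 against 61.9 ± 4.12 for FP2. SP3 had 102 ± 15.6 against 72.8 ± 1.11 for FP3, and SP4 had 187 ± 5.48 against 171 ± 15.5 for FP4. It did not overlap between conditions at P2 and P3 and did at P4 (182 to 193 in SP4, 159 to 188 in FP4).

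Across the 18 libraries, CHLH and CRD1 were the pair with the most similar profile (Pearson r = 0.91 of log2(CPM + 1)), followed by CHLH and PORA (0.89) and the POR pair (0.86). DVR and YGL1 were the least alike (-0.42). Of the 45 pairs, 37 had a positive coefficient and the median was 0.34. These are descriptions over libraries that share stages, conditions and the scaling, and carry no P. Outside the list, the 5 genes whose profiles were nearest to the mean standardised profile of the 10, of 27223 genes compared over 18 libraries, were LOC_Os03g18770 (r = 0.962), LOC_Os04g36720 (0.959), LOC_Os04g47250 (0.946), LOC_Os02g33730 (0.938) and LOC_Os04g45490 (0.937), for which no names are given in the sources used here.

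**Figure D4:**
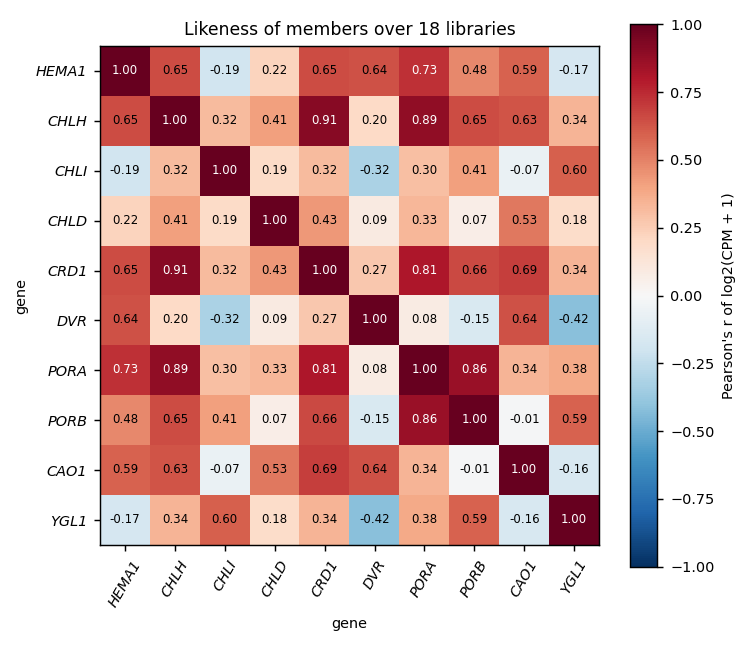
Pearson coefficients of log2(CPM + 1) between the 10 chlorophyll synthesis genes over the 18 libraries (colour scale from -1 to 1, value in each cell). CHLH, CRD1 and PORA form the block of highest values, 0.81 to 0.91, and the negative ones, down to -0.42, all include DVR, CHLI or YGL1 except that of PORB and CAO1 (-0.01).

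Other genes of chlorophyll metabolism were read from lists of identifiers assigned from general knowledge, since no source used here names them, and they are therefore given by identifier alone. Of 12 further synthesis identifiers, 1 rose and 5 fell in F at P2 (median -0.32), 0 rose and 3 fell at P3 (-0.32), and 1 rose and 2 fell of the 11 tested at P4 (0.01). Of all genes tested, 40.8%, 42.8% and 52.6% were called at P2, P3 and P4, and 19.5%, 19.1% and 24.4% were called lower. At P3 and P4 a smaller share of this list was called than of all genes. Only LOC_Os04g52130 and LOC_Os02g51080 of this list fell at all 3 stages. LOC_Os04g52130 had 298, 362 and 383 CPM in SP2 and 46.9, 43.2 and 45.4 in FP2, with log2 fold changes of -2.91, -0.91 and -0.55 over the stages. LOC_Os02g51080 had 89.6, 104 and 106 CPM in SP2 and 18.6, 20.8 and 21.5 in FP2, with -2.27, -1.96 and -0.98. Both falls at P2 were larger than any among the 10 genes, and the adjusted P values of these changes by edgeR were at most 0.00130.

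The 6 identifiers listed for chlorophyll breakdown and the interconversion of its forms went the other way. At P2, 3 rose and 1 fell in F (median 0.47), at P3 4 rose and 0 fell (1.3), and at P4 5 rose and 0 fell (0.95). Of all genes tested, 21.3%, 23.7% and 28.2% were called higher at these stages and 19.5%, 19.1% and 24.4% lower. LOC_Os09g36200 had 1.75, 2.02 and 1.97 CPM in SP3 and 81.3, 69.6 and 78.3 in FP3, and its log2 fold changes were 2.67, 5.38 and 4.01 at the 3 stages. LOC_Os06g24730 had 18.6, 23.4 and 15.7 CPM in SP3 and 141, 129 and 147 in FP3, with 1.55, 2.91 and 1.77. All of these passed the edgeR test (adjusted P at most 0.00205). Of 2 identifiers listed for transcription factors of the greening programme, LOC_Os06g24070 fell at each stage (-0.73, -2.05 and -1.54, edgeR adjusted P at most 0.0409), with 38.6, 34.9 and 38.3 CPM in SP3 and 9.21, 7.98 and 8.72 in FP3. LOC_Os01g13740 rose at P2 (0.55, adjusted P = 0.0101) and differed by 0.01 and 0.10 at P3 and P4.

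Markers of green tissue rose with these genes between meiosis and microspore formation, and at P4 they were higher in F. Of 13 identifiers listed for nuclear photosynthesis genes, 0 rose and 5 fell in F at P2 (median -0.29), 1 rose and 5 fell at P3 (-0.29), and 8 rose and 1 fell at P4 (0.46), where the chlorophyll genes had 1 rise and 3 falls. Over all genes tested, 40.8%, 42.8% and 52.6% were called at P2, P3 and P4, with 28.2% called higher at P4. Against 23.2% and 17.3% of all genes called higher, all 13 rose from SP3 to SP4 and from FP3 to FP4. Their summed level was 296 to 340 CPM for SP2 against 238 to 242 for FP2, 488 to 545 for SP3 against 429 to 452 for FP3, and 1200 to 1260 for SP4 against 1780 to 2000 for FP4. None was at 0 in a whole group.

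Markers of the parts of the flower gave further differences between the groups. The 6 flower-organ identifiers, which cover the labelled tissue, were present in every group, with sums of 461 to 658 CPM for SP2 against 349 to 356 for FP2, 716 to 1040 for SP3 against 419 to 424 for FP3, and 868 to 888 for SP4 against 804 to 828 for FP4. At P2, P3 and P4, 0, 0 and 1 of them rose in F and 3, 5 and 1 fell, with median log2 fold changes of -0.51, -1 and 0.13. Of all genes tested, 40.8%, 42.8% and 52.6% were called at these stages. The 8 tapetum identifiers summed to 46.9 to 50.9 CPM for SP2 against 41.6 to 46.7 for FP2, 134 to 146 for SP3 against 173 to 192 for FP3, and 214 to 227 for SP4 against 1570 to 1680 for FP4. By gene, 0 rose and 1 fell in F of the 7 tested at P2 (median -0.21). At P3, 3 rose and 2 fell (0.59), and at P4 5 rose and 1 fell (1.65). The 5 meiocyte identifiers summed to 259 to 284 CPM for SP2 against 194 to 196 for FP2, 341 to 350 for SP3 against 139 to 179 for FP3, and 189 to 223 for SP4 against 41.9 to 61.5 for FP4. By gene, 2 rose and 1 fell in F at P2 (median 0.11), though the sum was lower. At P3, 0 rose and 3 fell (-1.03), and at P4 0 rose and 4 fell (-2.11). None of the flower-organ, tapetum or meiocyte identifiers was at 0 in a whole group. The part of these shifts in the values of the chlorophyll genes was not tested.

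**Figure D5:**
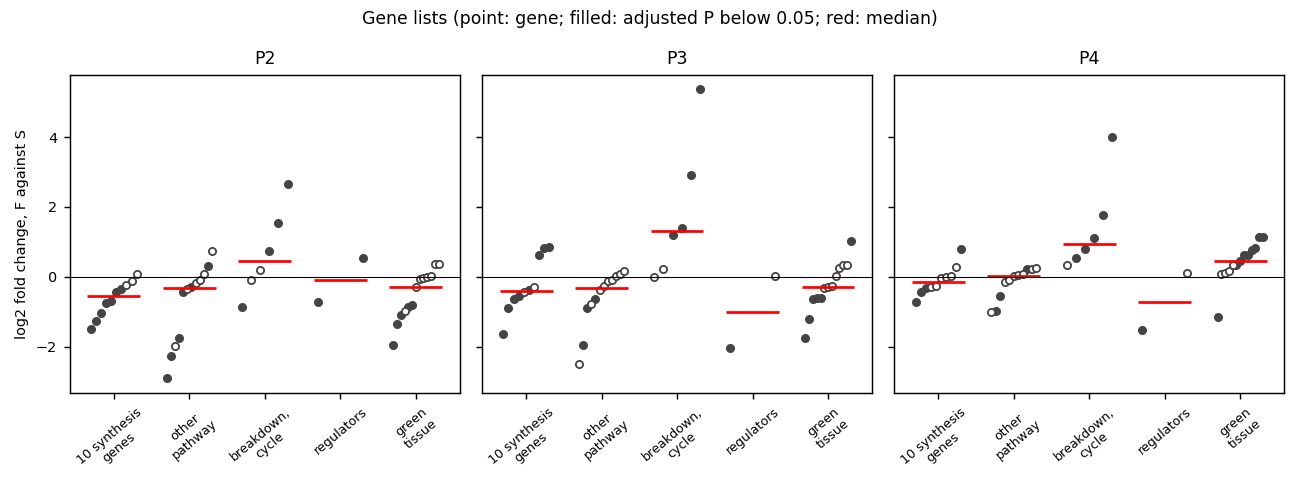
Log2 fold changes of WXS (F) against WXS (S) at P2, P3 and P4 for the 10 chlorophyll synthesis genes, the further synthesis, breakdown and regulator identifiers and the green-tissue markers (points, genes; filled points, adjusted P below 0.05; red lines, medians). The median of the 10 genes goes from -0.57 to -0.41 and -0.16, that of the green-tissue markers from -0.29 to -0.29 and 0.46, and that of the breakdown list is 0.47, 1.3 and 0.95.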

How the data were processed

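Strand-specific RNA-seq of 18 young-panicle libraries was analysed. Per the study's methods, reads were aligned by the authors with HISAT2 to the MSU assembly of rice. The submitters' processing notes also name StringTie 1.3.1. The tool that counted reads, its strand setting and its treatment of reads with several positions are not given in the sources used here. The deposited coding-gene counts are whole numbers without normalization and were tested. The deposited FPKM values were used to compare levels between genes and in an alternative with a pseudocount of 1. They do not follow from the counts and the deposited gene lengths by a single factor per library. Orders, shares and ratios by FPKM rest on the authors' values as deposited. Each column was matched to a library by name, and 0 were unmatched. The authors' circRNA and lncRNA tables were not used here.

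Genes with at least 10 counts in at least 3 libraries of a fit were compared with edgeR 4.0.16 in R 4.3.3 (quasi-likelihood test), TMM and Benjamini-Hochberg adjustment over all genes tested, and called at an adjusted P below 0.05 with no limit on the fold. Each stage was fitted on its 6 libraries, and the interaction and the changes between stages on all 18. Standard errors were derived approximately as the log2 fold change divided by the root of the F statistic, and 95% intervals use the t distribution with the fit's degrees of freedom. Total counts of 30577833 to 52222861 per library set the counting precision, and the 3 libraries per group set that between samples. The alternatives were DESeq2 1.42.0, no TMM, no filter, a joint fit of the 18 libraries, a block for replicate numbers, a log2 fold change of 1 or more in size, an adjusted P below 0.01, leaving out genes over 1% of a library, limma 3.58.1 on log2(FPKM + 1), and each library left out in turn. Leaving out SP2-1 and SP3-2 together was added after seeing the data. Calls said to hold in alternative fits were kept at an adjusted P below 0.05 in each refit. The fold limit and the adjusted P below 0.01 are thresholds rather than refits and were not counted there.

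The procedure was tested on simulated counts with 100 genes changed by each of 2 sizes, drawn from genes with a mean above 5 CPM. A log2 difference of 1 was recovered for 52%, 44% and 74% of the changed genes in the P2, P3 and P4 comparisons, and a log2 difference of 2 for 95%, 93% and 94%. Recovery of scarcer genes was not tested, and DVR had group means of 2.11 (FP2) to 6.93 CPM (SP3). False calls among the unchanged genes are not given here. The genes set to differ were a small part of the 23298, 23897 and 24144 simulated. In the data, 40.8%, 42.8% and 52.6% of all genes tested were called at these stages. Recovery where that many genes differ was not tested. All 10 genes of the list are named, and of other genes the 5 nearest in profile. Identifiers named from the further lists were chosen after their values were seen. The genes and lists were chosen with earlier results of these data known. Tables and plots were made with Python 3.11.15, numpy 2.4.6, pandas 2.3.3 and matplotlib 3.10.9.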

Additional observations from a re-analysis of the deposited data

Results flagged for a closer look

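For 5 of the 10 genes the difference between WXS (F) and WXS (S) was itself different between stages by the interaction test of edgeR over 18 libraries. That test called 38.2% of all 27233 genes, and 3 to 5 of the 10 with single libraries left out. The adjusted P values were 3.6e-06 for PORB, 0.00206 for CRD1, 0.00223 for CAO1, 0.0284 for DVR and 0.0406 for HEMA1. PORB was lower in all 3 F libraries at P2 and higher in all 3 at P3 and P4. CRD1 was lower in all 3 F libraries at P2 and P3 and overlapped at P4. CAO1 was lower in all 3 F libraries at every stage, with the smallest difference at P4. The DVR and HEMA1 interactions were called in 11 and 4 of the 18 fits with a library left out.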

How the results depend on the processing

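Of all genes tested, 40.8%, 42.8% and 52.6% were called at P2, P3 and P4, and how many of those calls held in every alternative fit was not counted. Among the 10 genes, F against S gave 19 calls. Of these, 10 held at an adjusted P below 0.05 in every alternative fit, 9 did not, and 0 changed sign. The 10 were CRD1, DVR, PORA and CAO1 at P2, PORB, CAO1 and YGL1 at P3, and CHLH, PORB and CAO1 at P4. The fold limit and the stricter adjusted P were not counted among these fits. Groups of 3 libraries limit calls of small changes.

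When the log2 fold change also had to reach 1 in size, 3, 1 and 0 of the 10 genes were called at P2, P3 and P4, and 4296, 5271 and 5559 of all genes. Between stages that limit left 1 from SP2 to SP3, 5 from SP3 to SP4, 0 from FP2 to FP3 and 4 from FP3 to FP4. At an adjusted P below 0.01, 4 genes of the 10 were called at P2, 3 at P3, 3 for the interaction and 5 from SP3 to SP4. Of all genes, 5592 were called at P2, 6397 at P3 and 6831 for the interaction. For the changes between stages, no count over all genes was made at either limit. Those counts therefore have no background to be read against. The interaction was called for 3 of the 10 with no filter and for 3 with limma on FPKM, beside 8977 and 10765 of all genes.

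With single libraries left out, 5 to 7 of the 10 were called at P2, 3 to 9 at P3, 3 to 4 at P4 and 3 to 5 for the interaction. At P3 the count was 3 without FP3-1, 4 without FP3-2, 3 without FP3-3 and 5 without SP3-3, and the interaction count was 3 without FP2-1, FP2-3, FP4-2, SP4-1 or SP4-3. Of all genes, 6717 to 11709 were called at P2, 6790 to 12414 at P3 (moved by over 1.5 times without any of the FP3 libraries), 10387 to 11997 at P4 and 9412 to 12226 for the interaction. Between stages, 3 to 4 of the 10 were called from SP2 to SP3, 6 to 8 from SP3 to SP4, 4 to 6 from FP2 to FP3 and 6 to 8 from FP3 to FP4. With no library left out, 24.4%, 43.5%, 39.5% and 36.5% of all genes were called in these comparisons.

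Further calls were lost at P3 for HEMA1 (-0.54) and DVR (-0.65) with limma on FPKM and for CHLI (0.85) in the fit of all libraries, and at P4 for CHLD with limma (-0.25) and in the fit of all libraries (-0.32). Only differences that were not called changed sign. Without TMM, CHLI at P2 was 0.03, CRD1 at P4 -0.09 and CHLH from FP2 to FP3 -0.06. CRD1 at P4 was -0.01 with no filter and -0.0045 with limma, CHLD at P2 was -0.10 with limma, and CRD1 from FP2 to FP3 was 0.01 without genes over 1% of a library. With SP2-1 and SP3-2 left out, CHLI, CHLD and YGL1 at P2 were 0.13, -0.02 and 0.23, and CHLH from FP2 to FP3 was -0.01. Over single libraries left out, the range was -0.28 to 0.10 for CHLI, -0.05 to 0.23 for CHLD and -0.44 to 0.20 for YGL1 at P2, and -0.03 to 0.01 for HEMA1, -0.39 to 0.36 for CHLI and -0.11 to 0.11 for CRD1 at P4. From SP2 to SP3 it was -0.28 to 0.02 for CHLH and -0.06 to 0.44 for DVR, and from FP2 to FP3 -0.06 to 0.14 for CHLH, -0.21 to 0.09 for CRD1 and -0.11 to 0.13 for YGL1. From SP3 to SP4 it was -0.09 to 0.04 for HEMA1 and -0.07 to 0.15 for CAO1, and from FP3 to FP4 -0.04 to 0.71 for CHLI.

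The causes were not tested. Same-numbered libraries of S and F did not deviate together, with correlations of -0.015 to 0.010. With the replicate number as a block, 7, 8 and 5 of the 10 genes were called at P2, P3 and P4 and 4 for the interaction, and 7747, 8323, 11780 and 9685 of all genes. PORA at P4 was then called (-0.28, edgeR adjusted P = 0.0493).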
